A study of Arabidopsis thaliana with 9 samples.

Results

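The comparison described here set 3 libraries of Arabidopsis thaliana Col-0 rosette leaves sprayed with the fungus Alternaria brassicicola against 3 libraries of mock-treated leaves, out of 9 libraries in the series, across all 33610 genes listed in the count files. Of these genes, 22019 passed the filter on low counts and were tested, and 11591 were not. The Alternaria plants received 1000000 spores per ml of strain MUCL 20297 with 0.01% of the wetting agent Silwet L-77, and their leaves were taken 3 days later. All plants were the ecotype Col-0, with no other genotype in the labels, and were grown on soil in humid air for 5 to 6 weeks, with 8 h of light a day at 22 °C. Libraries were made from poly(A) RNA drawn from 3 µg of total RNA. The labels give neither the content of the mock liquid nor the time at which mock leaves were taken, so a difference between the groups cannot be told apart from any unlabelled difference in the liquid or the time. The other 3 libraries, from untreated Col-0 leaves of the same age, entered only the estimate of the spread and are quoted for some genes only. Where no untreated value is given, nothing is said of whether the mock level differed from it. The labels do not say whether replicates were separate plants, so the p-values measure the spread between these libraries.

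Alternaria brassicicola is a necrotroph, a fungus that kills leaf cells and feeds on what they release. Leaves under such attack are best known for jasmonate signalling, camalexin and plant defensins, whereas the lists examined here lie outside textbook defence. They are mineral nutrition, breakdown of amino acids, lipids and nucleotides, respiration, the secretory pathway, translation, plastid metabolism, the leaf surface, water channels, and growth hormones and peptides. Messenger RNA was measured as reads per gene in bulk leaf tissue, so fewer cells of a type and less RNA per cell cannot be told apart in any of the falls below.

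Gene counts per library were 28758293 to 33738207 in the Alternaria group and 28826970 to 36061529 in the mock group. Levels are given as CPM, gene counts set to a common library size with TMM scaling, which are not divided by gene length and so are compared between groups and not between genes. The libraries of the Alternaria group correlated with each other at 0.994 to 0.995 (Pearson's r of log2 CPM across genes) and with the mock libraries at 0.925 to 0.946. A gene counts as having risen or fallen when its adjusted p was under 0.05 (edgeR quasi-likelihood test, Benjamini-Hochberg over all genes tested). By this rule 55.6% of all tested genes were called, 29.5% as higher and 26.1% as lower in Alternaria leaves, and these shares are the background for each list. The median log2 change over all tested genes was -0.02, with the 10th percentile at -0.82 and the 90th at 1.17. With upper-quartile scaling the median of all genes moved to -0.20, and the split of calls became 4937 higher and 8114 lower in place of 6489 and 5752. Changes near 0 are therefore relative to the scaling, and lists whose direction turns with it are named as such. For 7472 genes the 95% interval of the fold change lay within 1.5-fold in either direction.

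Root markers stood near the floor in every library, with the 7 of them summing to 1.21 to 1.61 CPM in the Alternaria group and 1.08 to 2.09 CPM in the mock group, and the 6 flower and seed markers summed to 2.49 to 3.18 CPM and 2.90 to 5.14 CPM. The 4 mesophyll markers summed to 12182 to 12654 CPM in Alternaria leaves, against 22059 to 23241 CPM in mock leaves, and all 4 fell.

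**Figure D1:**
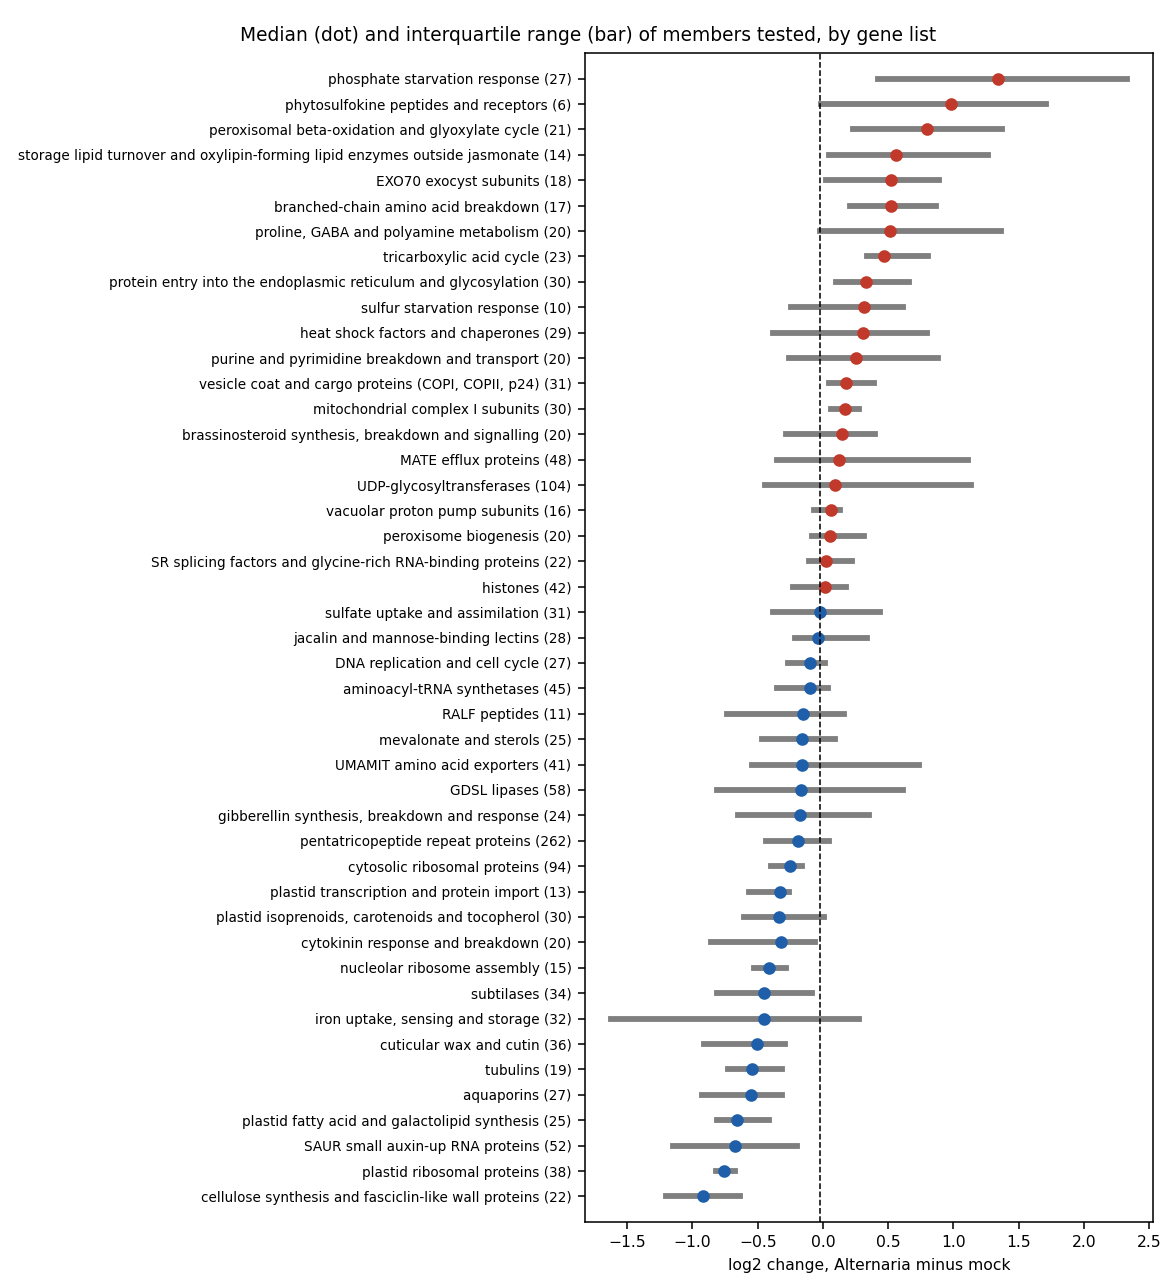
Median log2 change (dot; red above 0, blue below) and interquartile range (grey bar) of the tested members of each gene list, Alternaria minus mock, with the number of members tested in brackets; the dashed line is the median of all genes tested (-0.02). Phosphate starvation genes lie farthest to the right (1.34) and cellulose and fasciclin-like wall genes farthest to the left (-0.92). Medians of MATE efflux proteins, glycosyltransferases, brassinosteroid genes, histones, complex I, SR splicing factors, peroxisome biogenesis and the vacuolar pump change sign with upper-quartile scaling.

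The transcripts that gained most in CPM, apart from textbook defence genes, were led by an unnamed gene. AT2G25510, annotated as an uncharacterized protein, had 3344, 3354 and 3482 CPM in the Alternaria libraries, against 488, 552 and 434 CPM in the mock libraries. That was a log2 change of 2.79 ± 0.13 (SE) with an edgeR adjusted p of 1.2e-08, the largest gain in CPM among called nuclear genes whose groups did not overlap. EXT3, an extensin that crosslinks into the cell wall, had 2379, 2185 and 3963 CPM in the Alternaria libraries, against 93.1, 87.0 and 64.8 CPM in the mock libraries. CAT3, a catalase of peroxisomes, averaged 4922 ± 668 CPM in Alternaria leaves and 2215 ± 402 CPM in mock leaves (SD, n = 3 each). PCR1, annotated as PLANT CADMIUM RESISTANCE 1, had 1802, 1630.0 and 2257 CPM in the Alternaria libraries, against 27.0, 17.9 and 33.9 CPM in the mock libraries, a log2 change of 6.17 ± 0.40. AT5G42530, a second uncharacterized protein, rose by 2.31 ± 0.24, and ECS1, a cell-wall-located protein, by 1.74 ± 0.13 on the log2 scale. The remaining genes of the 10 largest gains were PR1, GSTF2, PEN3 and PRXCB. GSTF2 has a near-identical copy elsewhere in the genome, so reads of that pair may have been split or dropped. These 10 genes together took 2.59 to 3.14% of all gene counts in the Alternaria libraries and 0.479 to 0.582% in the mock libraries. The 10 largest losses were all nuclear genes of photosynthesis (CAB1, RBCS1A, RCA, CA1, LHCA1, LHCB5, CAB2, RBCS3B, PSAF and LHCA3) and took 3.84 to 4.27% in the Alternaria libraries and 7.05 to 7.54% in the mock libraries. CAB1 with CAB2 and the RBCS genes are near-identical copies, so their single values are uncertain.

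By level, 13 nuclear genes stood under 0.5 CPM in every mock library and at 5 CPM or more in every Alternaria library. All 13 were called, but these limits already set the groups far apart, so the calls add no support. The highest was AT1G33950, an AIG1-family GTPase-like protein, with 33.2, 18.1 and 44.0 CPM in the Alternaria libraries, against 0.277, 0.455 and 0.418 CPM in the mock libraries. AT4G10860 and AT3G13433, both uncharacterized, reached 12.4 to 25.7 CPM and 9.98 to 16.0 CPM in the Alternaria libraries and stayed at or under 0.333 CPM in the mock libraries. MAPKKK19, a protein kinase, had 15.2, 12.1 and 19.4 CPM in the Alternaria libraries, against 0.305, 0.455 and 0.167 CPM in the mock libraries. CYP82C2, a cytochrome P450, and SPX3 completed the 6 highest. The other 7 were GAT1_2.1, AT3G61198 (annotated as other RNA), UGT73D1, EDA36, DMP1, RLP11 and ABO3. GAT1_2.1, a glutamine amidotransferase-like protein, had 6.97, 8.20 and 12.9 CPM in the Alternaria libraries, against 0.277, 0.140 and 0.223 CPM in the mock libraries. No nuclear gene met the same limits in the other direction. The number of such genes depends on the limits: with 1 CPM and 3 CPM it was 107 on and 11 off.

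Genes that plants use when phosphate is short had the highest median change of the 45 lists. Phosphate-starved plants raise phosphate carriers, acid phosphatases and enzymes that swap membrane phospholipids for galacto- and sulfolipids, and the MYB-type factor PHR1 acts on many of these genes at a DNA element called P1BS. Of 28 genes on the list 27 were tested, 23 rose, 1 fell, and the median log2 change was 1.34 against -0.02 for all genes. With upper-quartile scaling 18 rose and the median was 1.16.

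Among carriers, PHT1;4, a plasma membrane phosphate importer, had 51.2, 77.7 and 79.9 CPM in the Alternaria libraries, against 6.24, 8.85 and 7.00 CPM in the mock libraries. The groups were far apart, with a log2 change of 3.25 ± 0.17 (edgeR adjusted p = 2.4e-08). PHT3;2, a mitochondrial phosphate carrier, had 20.5, 19.1 and 30.1 CPM in the Alternaria libraries, against 1.44, 1.33 and 0.892 CPM in the mock libraries, a log2 change of 4.25 ± 0.25. PHO1, which exports phosphate towards the xylem, was the member that fell: 20.9, 18.0 and 13.1 CPM in the Alternaria libraries, against 46.6, 34.1 and 32.6 CPM in the mock libraries. Among sensors, SPX3 had 10.3, 15.3 and 15.0 CPM in the Alternaria libraries, against 0.194, 0.315 and 0.307 CPM in the mock libraries, a log2 change of 5.63 ± 0.25 (edgeR adjusted p = 8.7e-09). SPX proteins bind inositol pyrophosphates and hold PHR1 back when phosphate is ample. Transcripts of PHR1 itself stood at 81.4 to 82.9 CPM in the Alternaria libraries and 74.9 to 79.3 CPM in the mock libraries and were not called, with a 95% interval of -0.05 to 0.22 on the log2 scale. PHO2, which targets carriers for degradation, had the most reads of the list and rose by 0.45 ± 0.09.

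Enzymes that release phosphate from other compounds moved with the carriers. PS2, a pyrophosphate-cleaving phosphatase, had 49.8, 67.9 and 80.0 CPM in the Alternaria libraries, against 3.74, 9.90 and 7.30 CPM in the mock libraries, a log2 change of 3.25 ± 0.33 (edgeR adjusted p = 3.7e-06). SQD2, which makes the sulfolipid that stands in for phospholipid, had 207, 311 and 349.7 CPM in the Alternaria libraries, against 103, 129 and 111 CPM in the mock libraries, a log2 change of 1.34 ± 0.16. MGD3, a galactolipid synthase induced by phosphate shortage, rose by 2.23 ± 0.21. In SRG3, PAP17, SPX1 and PHO2, and in the sum over the list, the mock level stood below that of untreated leaves. Summed over the list, the mock libraries held 891 to 959 CPM and untreated leaves 1143 to 1211 CPM. The sum in the Alternaria libraries was 1335 to 1858 CPM. PHO2 had 217, 259 and 268 CPM in the Alternaria libraries, 190.4, 181 and 174 CPM in the mock libraries, and 227, 238 and 256 CPM in untreated leaves. SRG3, a glycerophosphodiester phosphodiesterase, had 23.5, 45.1 and 45.7 CPM in the Alternaria libraries, 4.60, 9.73 and 5.52 CPM in the mock libraries, and 23.6, 20.3 and 21.0 CPM in untreated leaves. PAP17, an acid phosphatase, had 80.1, 132 and 162 CPM in the Alternaria libraries, 18.4, 28.2 and 23.0 CPM in the mock libraries, and 103, 81.0 and 70.1 CPM in untreated leaves. SPX1 had 55.6, 96.3 and 95.0 CPM in the Alternaria libraries, 15.1, 21.9 and 16.9 CPM in the mock libraries, and 60.9, 53.3 and 51.8 CPM in untreated leaves. For SRG3, PAP17, SPX1 and PHO2 the Alternaria and untreated ranges overlap, while for SPX3, PHT3;2, PHT1;4 and PS2 the Alternaria libraries stood above both other groups. PHO1, PHR1, PAP17, SPX1 and MGD3 were named after their values were seen.

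The promoters of SPX3, PS2 and PHT1;4 are shown because these 3 genes rose together by over 3 on the log2 scale and differ in P1BS content. Each is the 250 bases before the annotated transcript start, 5′ to 3′ on the gene's strand (RefSeq TAIR10.1), with every match to GNATATNC in capitals (N is any base, and the motif reads the same on both strands).
SPX3, chr2:18606160-18606409, plus strand: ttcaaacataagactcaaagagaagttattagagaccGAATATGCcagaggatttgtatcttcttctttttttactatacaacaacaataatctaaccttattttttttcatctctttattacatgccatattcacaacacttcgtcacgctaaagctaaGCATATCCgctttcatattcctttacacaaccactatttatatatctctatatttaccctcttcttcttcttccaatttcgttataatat
PS2, chr1:27466349-27466598, minus strand: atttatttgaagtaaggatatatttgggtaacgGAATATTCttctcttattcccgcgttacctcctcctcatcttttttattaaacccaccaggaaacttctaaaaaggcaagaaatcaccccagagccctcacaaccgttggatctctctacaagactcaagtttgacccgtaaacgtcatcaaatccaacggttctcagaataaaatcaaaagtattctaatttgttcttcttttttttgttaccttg
PHT1;4, chr2:16256907-16257156, plus strand: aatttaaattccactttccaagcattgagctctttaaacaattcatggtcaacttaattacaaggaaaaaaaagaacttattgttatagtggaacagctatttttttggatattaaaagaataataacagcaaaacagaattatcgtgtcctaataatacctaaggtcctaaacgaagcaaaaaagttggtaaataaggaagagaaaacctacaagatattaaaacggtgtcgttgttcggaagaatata
SPX3 holds 2 matches and PS2 holds 1, while PHT1;4 holds none in this window. Of the 27 tested genes on the list 7 had at least 1 match (25.9%), against 5.43% of the 20626 tested nuclear protein-coding genes. Those 7 were SPX3, SRG3, PS2, NPC4, PLDP2, MGD2 and PPCK1, of which the first 6 rose and PPCK1, at -0.03, was not called. P1BS was searched after the values of the list were known, and a match is a description of letters, not evidence of binding. P1BS was not the most frequent of the motifs searched that stood above their background here. The heat shock element (GAANNTTC) stood in 9 of the 27 promoters (33.3%), against 9.56% of all tested nuclear protein-coding genes.

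**Figure D2:**
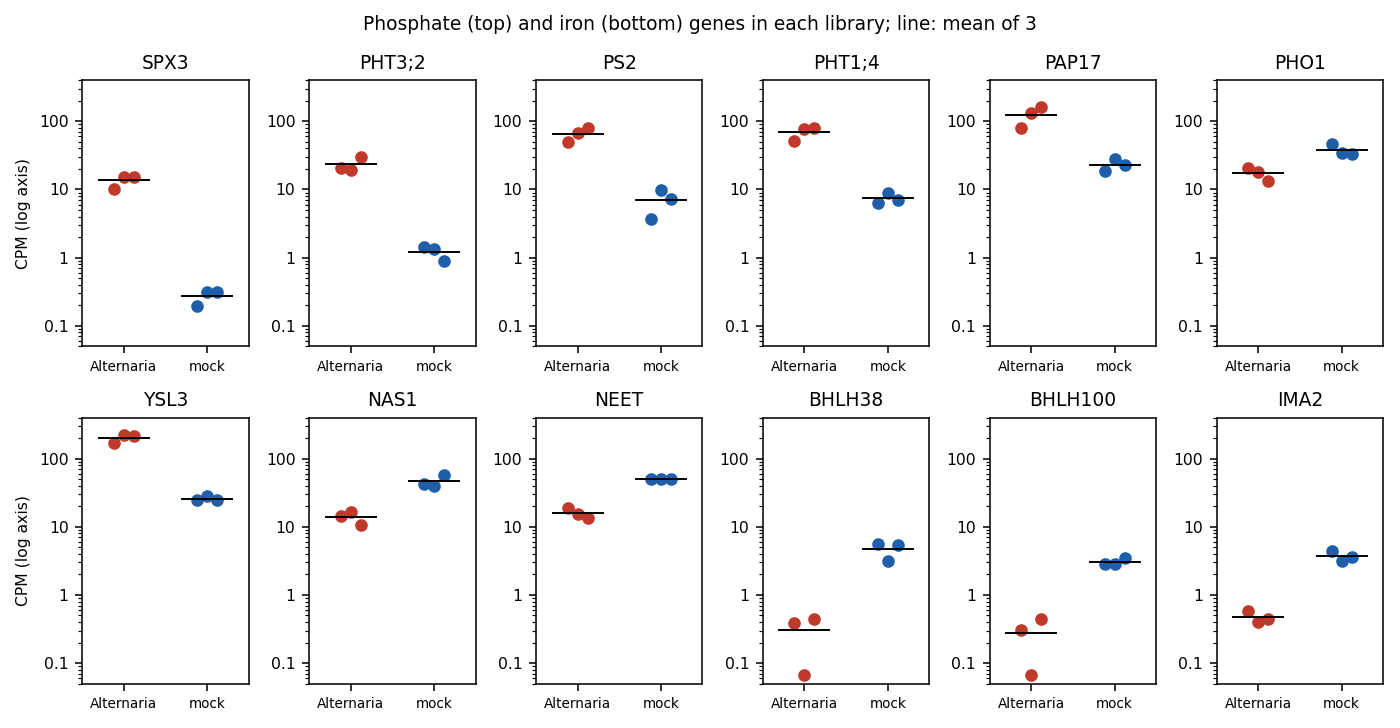
CPM (log axis, same scale in every panel) of 6 phosphate genes (top) and 6 iron genes (bottom) in each of the 3 Alternaria (left, red) and 3 mock (right, blue) libraries; the line is the mean of 3. The groups do not overlap in any of the 12 panels, which follows from the choice of genes. Each was named by a rule that requires groups apart or after its values were seen. SPX3 lies at 10.3 to 15.3 CPM in Alternaria libraries and at 0.194 to 0.315 CPM in mock libraries, and BHLH38, BHLH100 and IMA2 lie lower in all 3 Alternaria libraries.

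Iron genes moved in both directions. The list of 35 genes, of which 32 were tested, had 8 that rose and 16 that fell, with a median log2 change of -0.45. Leaves short of iron switch on the IMA peptides and a small group of bHLH factors (BHLH38, BHLH39, BHLH100 and BHLH101), and these are low when iron is sufficient. BHLH38 had 0.394, 0.0672 and 0.450 CPM in the Alternaria libraries, against 5.54, 3.11 and 5.46 CPM in the mock libraries, a log2 change of -3.93 ± 0.38 (edgeR adjusted p = 2.3e-06). BHLH100 had 0.309, 0.0672 and 0.450 CPM in the Alternaria libraries, against 2.88, 2.80 and 3.43 CPM in the mock libraries, a change of -3.44 ± 0.37. BHLH39 fell by 3.02 ± 0.40 on the log2 scale, and for BHLH101 the change of -0.96 ± 0.43 was not called (adjusted p = 0.076). BHLH101 was called without Alternaria 1 (-1.51), with the replicate number as a block and with upper-quartile scaling (-1.14). IMA2 had 0.590, 0.403 and 0.450 CPM in the Alternaria libraries, against 4.41, 3.11 and 3.57 CPM in the mock libraries, a change of -2.92 ± 0.28, and IMA1 and IMA3 fell by 2.31 ± 0.36 and 2.16 ± 0.38. In all 6 fallers the groups did not overlap, yet 1 Alternaria library had only 0.0672 CPM of BHLH38 and of BHLH100, under the level of 3 counts (0.0889 to 0.104 CPM in that group), so their fold changes rest on few reads. BHLH38 and BHLH39 are neighbouring copies of each other. These bHLH and IMA genes lie under the 5 CPM limit of the naming rule and were named after their values were seen.

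Of better measured iron genes, PYE, a bHLH repressor of the iron response, had 4.92, 4.64 and 4.95 CPM in the Alternaria libraries, against 10.9, 10.6 and 11.2 CPM in the mock libraries, and 27.0, 21.5 and 28.2 CPM in untreated leaves. NAS1 and NAS4, which make the iron chelator nicotianamine, fell by 1.76 ± 0.16 and 1.57 ± 0.16, whereas NAS3 rose by 1.00 ± 0.20. NEET, an iron-sulfur cluster protein, had 18.9, 15.6 and 13.7 CPM in the Alternaria libraries, against 49.6, 51.1 and 50.1 CPM in the mock libraries, a log2 change of -1.64 ± 0.11. YSL3, which carries metal-nicotianamine complexes out of ageing leaves, was the opposite case. It had 169, 225 and 214 CPM in the Alternaria libraries, against 24.4, 28.8 and 24.4 CPM in the mock libraries, a change of 2.97 ± 0.11 (edgeR adjusted p = 3.9e-09), and its relative YSL1 rose by 0.90 ± 0.08. Ferritins, the iron stores of plastids, also divided: FER1 rose by 0.37 ± 0.10 (0.19 and not called with upper-quartile scaling), while FER3 and FER4 fell by 0.93 ± 0.10 and 0.47 ± 0.07. OPT3, a phloem iron carrier, was not called (-0.12 ± 0.09).

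Of 31 sulfate genes tested 9 rose, 9 fell, and the median was -0.02, which became 8, 14 and -0.19 with upper-quartile scaling. The share called, 58.1%, was near the 55.6% of all tested genes. APS4, an ATP sulfurylase, rose with 63.2, 71.6 and 83.8 CPM in the Alternaria libraries, against 21.0, 21.5 and 24.6 CPM in the mock libraries, while APS1, with more reads, was not called (0.13 ± 0.08). APR2, a reductase that commits sulfate to cysteine, had 337, 295 and 302 CPM in the Alternaria libraries, 739, 623 and 654 CPM in the mock libraries, and 1848, 1592 and 1648 CPM in untreated leaves. LSU2, a marker of low sulfur, showed the same order, with 11.3, 7.89 and 9.97 CPM in the Alternaria libraries, 28.3, 23.8 and 28.7 CPM in the mock libraries, and 48.0, 48.4 and 61.8 CPM in untreated leaves. GSH2, which completes glutathione, rose by 0.87 ± 0.09. Of the 10 sulfur starvation genes 2 rose and 1, LSU2, fell, which became 1 and 2 with upper-quartile scaling. The median of that list was 0.32 and its highest log2 change 2.86, so LSU2 does not stand for the list.

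Enzymes that break down amino acids and fatty acids rose, and those that make fatty acids in the plastid fell. In the breakdown of leucine, isoleucine and valine 12 of 17 genes rose and 1 fell (median 0.52). BCAT2, a branched-chain amino acid transaminase, had 30.2, 35.7 and 45.6 CPM in the Alternaria libraries, against 3.41, 4.27 and 4.32 CPM in the mock libraries, a log2 change of 3.22 ± 0.15 (edgeR adjusted p = 1.2e-08). Its paralogue BCAT1 was the member that fell (-0.70 ± 0.11). The branched-chain dehydrogenase subunit DIN4 rose by 1.49 ± 0.17, and further along the route MCCA rose by 1.24 ± 0.11 and IVD by 0.87 ± 0.11.

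Peroxisomal β-oxidation, which shortens fatty acids to acetyl-CoA, rose in 16 of 21 tested genes and fell in 3 (median 0.80). The acyl-activating LACS7 and LACS6, the oxidase ACX4 and the thiolase PED1 cover successive steps. PED1 had 317, 374 and 423 CPM in the Alternaria libraries, against 127, 137 and 138 CPM in the mock libraries, a log2 change of 1.47 ± 0.10. LACS7 rose by 1.46 ± 0.09, LACS6 by 1.38 ± 0.10 and ACX4 by 1.37 ± 0.08. CSY3, a peroxisomal citrate synthase that passes the acetyl units on, had 73.5, 89.0 and 99.0 CPM in the Alternaria libraries, against 23.2, 27.8 and 29.3 CPM in the mock libraries. ICL, the glyoxylate cycle's isocitrate lyase, was too low to be tested, with means of 0.208 and 0.220 CPM, and malate synthase (MLS) was not called, with means of 0.480 and 0.771 CPM in Alternaria and mock leaves. Among the fallers, PMDH2, a peroxisomal malate dehydrogenase of photorespiration, had 433, 498 and 440.4 CPM in the Alternaria libraries, against 795, 808 and 872 CPM in the mock libraries. KAT5, another thiolase, fell by 0.89 ± 0.08. Proteins that build the peroxisome had 7 of 20 genes rising and 2 falling, which became 4 and 7 with upper-quartile scaling.

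Lipid-releasing and lipid-oxidizing enzymes included some of the steepest rises. PLP2, a patatin-like phospholipase, had 199.7, 202 and 296 CPM in the Alternaria libraries, against 10.2, 10.3 and 9.09 CPM in the mock libraries, a log2 change of 4.56 ± 0.25. DOX1, an α-dioxygenase of fatty acids, had 41.3, 28.1 and 73.0 CPM in the Alternaria libraries, against 2.22, 0.735 and 1.56 CPM in the mock libraries, a change of 4.94 ± 0.37. SDP1, a triacylglycerol lipase, rose by 1.28 ± 0.10, and PES2 and PES1, which esterify phytol and fatty acids from broken-down thylakoids, by 1.97 ± 0.13 and 1.21 ± 0.18. Of the 14 genes on that list 9 rose and 3 fell. In the other direction, 23 of 25 genes of plastid fatty acid and galactolipid synthesis fell (median -0.66) and 1 rose. The list also counts FAD2, a desaturase of the endoplasmic reticulum and not of the plastid. FAD2 had the most reads of the list and fell by 0.53 ± 0.07. MOD1, the enoyl reductase of fatty acid synthesis, had 55.9, 56.1 and 54.5 CPM in the Alternaria libraries, against 104, 116 and 118 CPM in the mock libraries. The desaturases FAD4, FAD5 and FAD8 fell by 1.22 ± 0.07, 1.04 ± 0.07 and 1.02 ± 0.07. The exception was DGD2, a galactolipid synthase used under phosphate shortage, with 36.2, 35.4 and 39.1 CPM in the Alternaria libraries, against 16.7, 16.8 and 16.6 CPM in the mock libraries; its paralogue DGD1 fell by 0.32.

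**Figure D3:**
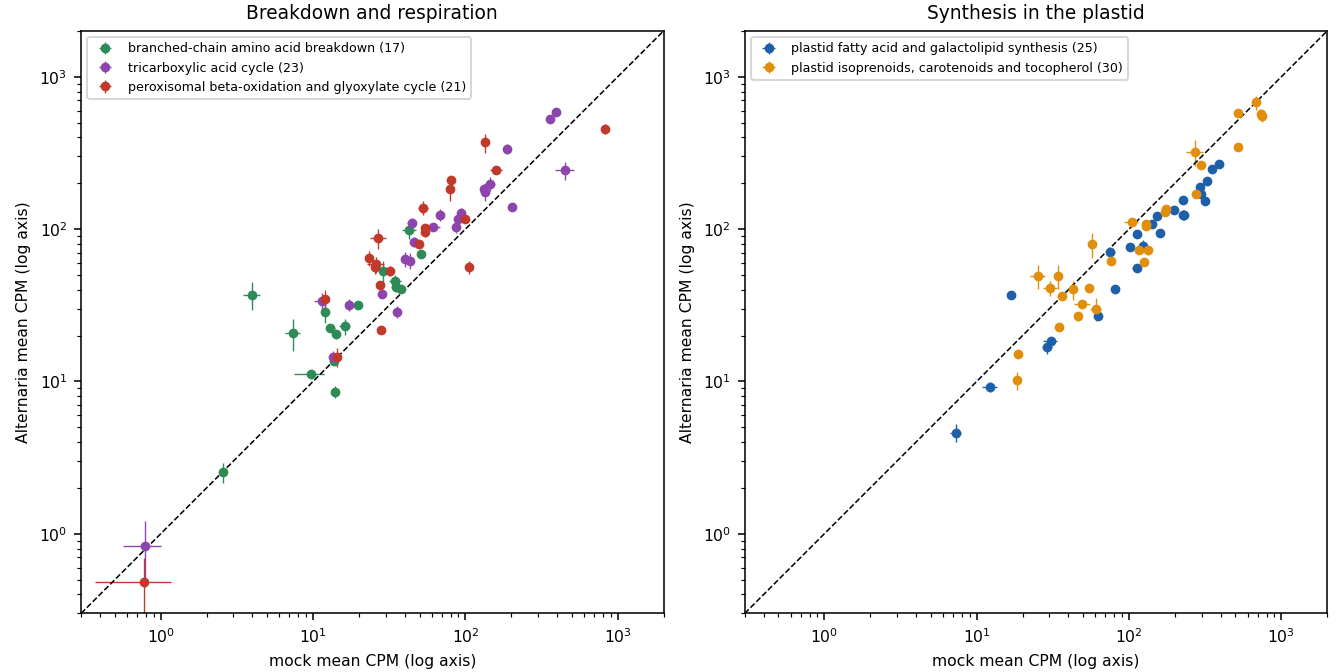
Mean CPM in Alternaria leaves (vertical, log axis) against mock leaves (horizontal, log axis) for each tested member of 5 lists, with SD over 3 libraries as bars; the dashed line marks equal levels. Most genes of branched-chain amino acid breakdown, the tricarboxylic acid cycle and peroxisomal β-oxidation lie above the line (left; 12 of 17, 18 of 23 and 16 of 21 rose), and most of plastid fatty acid and isoprenoid synthesis lie below it (right; 23 of 25 and 20 of 30 fell). The fatty acid list includes FAD2, of the endoplasmic reticulum.

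The tricarboxylic acid cycle rose in 18 of 23 tested genes and fell in 3 (median 0.47). IDH2, a regulatory isocitrate dehydrogenase subunit, had 31.7, 30.3 and 38.5 CPM in the Alternaria libraries, against 12.6, 11.5 and 10.1 CPM in the mock libraries, a log2 change of 1.55 ± 0.12 (edgeR adjusted p = 3.3e-07). OGDHE2B, a subunit of oxoglutarate dehydrogenase, rose by 1.29 ± 0.12, SCSA1 of succinyl-CoA ligase by 0.86 ± 0.09, and the aconitases ACO1 and ACO3, both with many reads, by 0.58 ± 0.08 and 0.55 ± 0.08. FUM2, a cytosolic fumarase that lets leaves store fumarate, went the other way, with 248, 274 and 206 CPM in the Alternaria libraries, 382, 468 and 507 CPM in the mock libraries, and 80.7, 81.1 and 88.2 CPM in untreated leaves. The mitochondrial fumarase FUM1 rose by 0.39. Subunits of respiratory complex I changed little: 9 of 30 rose and 1 fell, with a median of 0.17 that became -0.01 with upper-quartile scaling. EMB1467, the complex I subunit with the most reads, rose by 0.47 ± 0.08.

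Genes for the handling of nitrogen-rich compounds moved in both directions. In proline, GABA and polyamine metabolism 12 of 20 tested genes rose and 4 fell (median 0.51). LHT1, an amino acid importer, had 62.8, 67.7 and 86.2 CPM in the Alternaria libraries, against 7.10, 8.78 and 6.58 CPM in the mock libraries, a log2 change of 3.28 ± 0.19 (edgeR adjusted p = 4.1e-08). Both proline dehydrogenases rose, PDH2 by 2.36 ± 0.18 and ERD5 by 1.55 ± 0.18, while the proline-making P5CS1 was not called (0.25). Glutamate decarboxylases divided, with GAD1 and GAD4 up by 1.69 ± 0.19 and 1.53 ± 0.30 and GAD2, which has the most reads of the list, down by 0.38 ± 0.08. Arginine decarboxylases divided too: ADC2 averaged 255 CPM in Alternaria leaves and 161 CPM in mock leaves, and ADC1 averaged 174 CPM and 239.8 CPM. In pyrimidine breakdown PYD1, PYD2 and PYD3, the 3 successive enzymes, rose by 1.46 ± 0.14, 0.85 ± 0.12 and 1.34 ± 0.11. The purine list around them had 11 risers and 3 fallers among 20 (8 and 7 with upper-quartile scaling), with XDH1 rising by 0.60 and its tandem copy XDH2 falling to 3.71, 5.27 and 3.39 CPM in the Alternaria libraries, against 11.8, 13.7 and 14.6 CPM in the mock libraries. Of 41 tested UMAMIT amino acid exporters 12 rose and 10 fell (53.7% called, near the 55.6% of all tested genes). UMAMIT40 had 33.9, 47.3 and 46.7 CPM in the Alternaria libraries, against 4.99, 6.16 and 8.06 CPM in the mock libraries.

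The route by which proteins enter the endoplasmic reticulum rose in 18 of 30 genes and fell in 1 (median 0.33). AT2G34250, a SecY-type channel protein, had 302, 307 and 349 CPM in the Alternaria libraries, against 187, 185 and 180.3 CPM in the mock libraries, a log2 change of 0.79 ± 0.08 (edgeR adjusted p = 3.0e-06). AT4G24920, the small γ subunit of the channel, rose by 1.17 ± 0.11 and the signal peptidase subunit AT3G05230 by 0.97 ± 0.10. Among coat and cargo proteins of the early secretory pathway 15 of 31 rose and 3 fell, with a median of 0.18 (0.01 with upper-quartile scaling). The share called in either direction was 58.1%, against 55.6% of all tested genes. The p24-type cargo protein AT1G26690 rose, with 59.3, 48.8 and 59.2 CPM in the Alternaria libraries, against 23.5, 19.3 and 20.7 CPM in the mock libraries, while the coatomer subunits with the most reads, AT4G34450 and AT1G52360, were not called (0.14 and 0.06). EXO70 subunits direct vesicles to sites of secretion, and 10 of 18 tested rose and 1 fell (median 0.52). EXO70B2 had 79.4, 80.3 and 94.1 CPM in the Alternaria libraries, against 18.0, 13.9 and 16.2 CPM in the mock libraries, a change of 2.40 ± 0.17, followed by EXO70H4 (2.04 ± 0.19) and EXO70E2 (1.54 ± 0.10). Of the vacuolar proton pump 15 of 16 subunits were not called and 1 fell, which became 6 that fell with upper-quartile scaling, and its catalytic subunit VHA-A stood at 459.9 to 472 CPM in the Alternaria libraries and 421 to 457 CPM in the mock libraries.

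The promoter of AT4G30600, the receptor subunit for the signal recognition particle and the gene with the most reads on that list that both rose and holds the motif, is shown with its CGCG element (ACGCGT or CCGCGT, on either strand) in capitals (250 bases before the start, RefSeq TAIR10.1).
AT4G30600, chr4:14941209-14941458, minus strand: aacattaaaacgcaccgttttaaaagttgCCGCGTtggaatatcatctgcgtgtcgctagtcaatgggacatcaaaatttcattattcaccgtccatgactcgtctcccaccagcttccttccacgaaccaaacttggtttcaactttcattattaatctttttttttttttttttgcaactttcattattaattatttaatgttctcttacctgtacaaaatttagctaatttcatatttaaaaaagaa
Of the 30 promoters of genes for entry into the endoplasmic reticulum 6 (20.0%) hold this element, against 3.61% of all tested nuclear protein-coding genes. The log2 changes of those 6 genes ran from -0.22 (AT5G49500) to 2.89 (AT3G60540), with AT1G78720 at 0.07. In the histone list, where most members were not called, the share was 19.0%. AT4G30600 itself rose by 0.44 ± 0.07.

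All 38 nuclear genes for plastid ribosomal proteins fell, with log2 changes between -0.98 and -0.54 and a median of -0.76. PRPL4 had 172, 158 and 158 CPM in the Alternaria libraries, against 341, 317 and 308 CPM in the mock libraries, a change of -0.98 ± 0.07 (edgeR adjusted p = 2.0e-07). Summed over the list, the Alternaria libraries held 4605 to 4759.6 CPM and the mock libraries 7649 to 7947 CPM. The mesophyll markers fell beside them by a median of 0.86, and the part of cell makeup in this fall was not tested. Of 13 genes for plastid transcription and protein import 10 fell (median -0.33), with the sigma factor SIG1 at 249, 262 and 237 CPM in the Alternaria libraries, against 378, 394 and 404 CPM in the mock libraries. Among pentatricopeptide repeat proteins, which edit and process organelle RNA, 83 of 262 fell and 15 rose (median -0.19). One gene with this name, AT3G29240, had 560.1, 599.9 and 701 CPM in the Alternaria libraries, against 144, 147 and 148 CPM in the mock libraries, a change of 2.08 ± 0.10; its annotation also names a DUF179 domain, so its place in the family is uncertain.

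Cytosolic ribosomal proteins moved less, with 55 of 94 falling and 3 rising (median -0.25), and many of them are near-identical copies whose reads may be split. The 2 with the most reads, emb2386 and AT5G20290, fell by 0.27 ± 0.09 and 0.32 ± 0.09, and emb2386 lost its call without Alternaria 2 or 3 or mock 3. RPL18AA was an exception, with 17.0, 19.0 and 19.2 CPM in the Alternaria libraries, against 9.17, 11.9 and 10.8 CPM in the mock libraries. In the nucleolus, where ribosomes are put together, 14 of 15 genes fell (median -0.41). NUC1, a nucleolin, had 407, 347 and 375 CPM in the Alternaria libraries, 510.4, 432 and 489 CPM in the mock libraries, and 340.2, 337 and 307 CPM in untreated leaves, so the Alternaria level lay between the other groups. FIB1, a fibrillarin, showed the same order, with 153, 144 and 141 CPM in the Alternaria libraries, 181, 168 and 168 CPM in the mock libraries, and 128, 128 and 136 CPM in untreated leaves. The means of NUC2 (5.14, 8.32 and 3.84 CPM) kept this order. Those of SWA1 (12.7, 18.5 and 19.0 CPM) and NOP5-2 (95.2, 136 and 120.4 CPM) were lowest in Alternaria leaves. Summed over the nucleolar list, the Alternaria libraries held 1119 to 1317 CPM and the mock libraries 1466 to 1611 CPM. Untreated libraries held 1171 to 1221 CPM, within the Alternaria range. Summed over the cytosolic ribosomal list, the Alternaria libraries held 7986 to 9038 CPM, the mock libraries 10026 to 10531 CPM and the untreated libraries 8440.2 to 9335 CPM. Of 45 aminoacyl-tRNA synthetases, which charge tRNAs, 16 fell and 4 rose (median -0.10), with OVA2, an organelle isoleucine enzyme, at 62.9, 60.9 and 60.8 CPM in the Alternaria libraries, against 108, 106 and 108 CPM in the mock libraries, and the cytosolic ALATS not called (-0.05 ± 0.06).

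The promoter of NUC1 is shown because the nucleolar and cytosolic ribosomal lists fell together. Site II elements (TGGGCC or TGGGCT) and the telo box (AAACCCTA), on either strand, are in capitals (250 bases before the start, RefSeq TAIR10.1).
NUC1, chr1:18097831-18098080, plus strand: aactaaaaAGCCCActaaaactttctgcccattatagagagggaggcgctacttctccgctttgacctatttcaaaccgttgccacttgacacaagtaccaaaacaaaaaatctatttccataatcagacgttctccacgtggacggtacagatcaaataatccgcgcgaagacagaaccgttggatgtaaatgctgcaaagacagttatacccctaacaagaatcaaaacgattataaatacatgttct
NUC1 holds 1 site II match and no telo box in this window. Site II elements stood in 68.1% of the 94 cytosolic ribosomal promoters and 66.7% of the 15 nucleolar ones, against 21.8% of all tested nuclear protein-coding genes. The telo box stood in 25.5% and 20.0%, against 3.66% of all. In the plastid ribosomal list, which fell further, the shares were 36.8% and 10.5%. Site II elements were also common in lists that did not fall. They stood in 50.0% of the promoters for entry into the endoplasmic reticulum (median log2 change 0.33). For SR splicing factors and glycine-rich RNA-binding proteins the share was 59.1% (median 0.02). A link between the element and the falls was not tested.

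**Figure D4:**
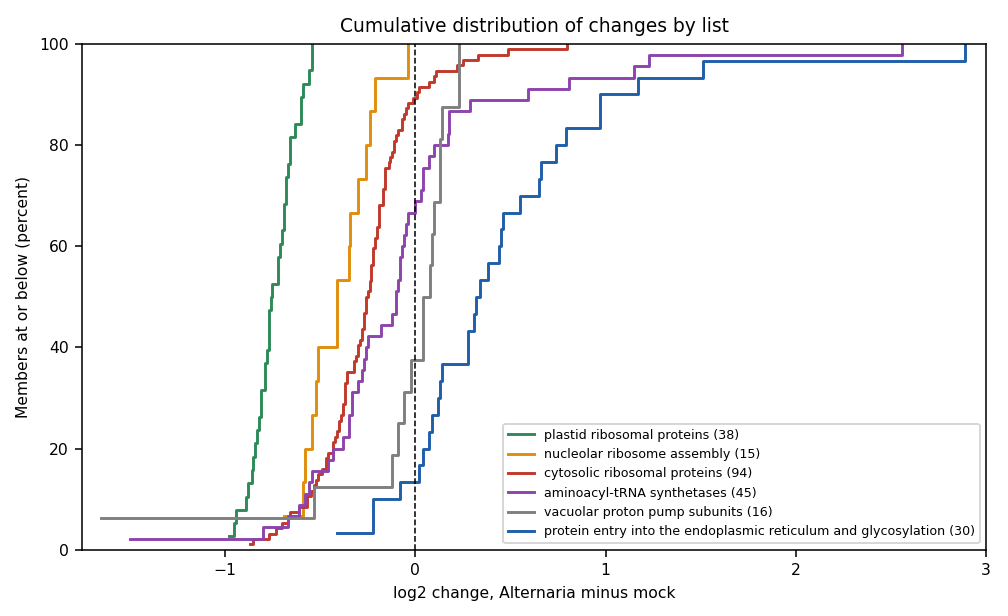
Cumulative share of members (percent) at or below each log2 change, Alternaria minus mock, for 6 lists; the dashed line is 0. Plastid ribosomal proteins lie wholly left of 0 (-0.98 to -0.54), cytosolic ribosomal proteins and nucleolar genes lie closer to it, the vacuolar pump rises steeply near 0, and genes for entry into the endoplasmic reticulum lie mostly to the right (median 0.33).

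Other plastid products fell less evenly. Of 30 genes for carotenoids, tocopherol and their precursors 20 fell and 4 rose (median -0.33). BCH1, a carotene hydroxylase, had 56.7 to 63.6 CPM in the Alternaria libraries, 122 to 128 CPM in the mock libraries, and 315 to 326 CPM in untreated leaves, and BCH2 fell by 1.00 on the log2 scale. All 4 risers (VTE2, TAT7, HPD and VTE5) act towards tocopherol, the plastid antioxidant, from tyrosine or phytol. VTE2 had 42.2, 46.0 and 59.2 CPM in the Alternaria libraries, against 24.3, 23.1 and 28.5 CPM in the mock libraries, a log2 change of 0.95 ± 0.12. VTE1 and VTE3 of the same route fell by 0.61 and 0.70. Outside the plastid, sterol genes were mostly flat or lower, with 10 of 25 falling and 4 rising. Their share called, 56.0%, was near the 55.6% of all tested genes. DWF1 and SMT2, which shape the main plant sterols, fell by 0.78 ± 0.07 and 0.58 ± 0.09. CYP710A1, which turns sitosterol into stigmasterol, had 15.8, 16.6 and 33.4 CPM in the Alternaria libraries, against 0.610, 0.770 and 1.06 CPM in the mock libraries, a change of 4.74 ± 0.35 (edgeR adjusted p = 2.5e-07).

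Most tested genes of the primary wall, the cuticle and the water channels fell. Of 22 genes for cellulose synthesis and fasciclin-like wall proteins 21 fell, and the list's median of -0.92 was the lowest of all lists. FLA13, an arabinogalactan protein, had 85.9, 91.8 and 77.2 CPM in the Alternaria libraries, against 318, 329 and 265 CPM in the mock libraries, a log2 change of -1.84 ± 0.10 (edgeR adjusted p = 2.3e-08). CESA5, a subunit of the primary-wall cellulose synthase, fell by 1.38 ± 0.09 and CESA1 by 0.77 ± 0.07. CTL1, a chitinase-like protein that serves cellulose deposition, had 480.3, 504 and 427 CPM in the Alternaria libraries, against 998, 1050.3 and 1069 CPM in the mock libraries. For FLA13 the mock and untreated ranges overlap. Xylem markers fell as well (5 of 6, summed 49.9 to 64.7 CPM in the Alternaria libraries and 74.6 to 97.7 CPM in the mock libraries), and their part in the wall result was not tested. Of 19 tubulin and FtsZ genes 18 fell and 1 rose (median -0.54); TUA2 had 133, 126 and 122 CPM in the Alternaria libraries, against 228, 246 and 237 CPM in the mock libraries, though TUA2 and TUA4 are near-identical.

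Of 36 tested genes for cuticular wax and cutin 24 fell and 2 rose (median -0.50). CYP86A2, a fatty acid hydroxylase of cutin, had 97.0, 102 and 104 CPM in the Alternaria libraries, against 276, 258 and 281 CPM in the mock libraries, a log2 change of -1.43 ± 0.11. KCS1, which elongates wax precursors, fell by 1.39 ± 0.10 and CER2 by 1.13 ± 0.08. The risers were KCS12 and DEWAX, a repressor of wax genes, which had 65.1, 86.9 and 68.5 CPM in the Alternaria libraries, against 25.0, 34.9 and 36.0 CPM in the mock libraries. Of 6 epidermis and trichome markers 3 fell, among them ATML1 by 0.87 ± 0.07, and their summed level was 284 to 309.5 CPM in the Alternaria libraries and 424 to 438 CPM in the mock libraries; their part in the wax result was not tested. Guard cell markers summed to 107 to 114 CPM and 111 to 113 CPM, with MYB60 falling by 1.02 ± 0.12 and the channel gene KAT1 (AT5G46240) rising by 0.73 ± 0.10.

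Aquaporins, the water channels, fell in 17 of 27 tested genes and rose in 3 (median -0.55). The vacuolar TIP2;1 had 163, 227 and 171 CPM in the Alternaria libraries, against 478, 555 and 537 CPM in the mock libraries, a log2 change of -1.49 ± 0.12 (edgeR adjusted p = 3.8e-07). TIP1;1 fell by 1.21 ± 0.09, and the plasma membrane PIP2;1, which has the most reads of the list, had 434, 509.9 and 471 CPM in the Alternaria libraries, against 854, 895 and 992 CPM in the mock libraries. The risers were NIP3;1, which has few reads and lost its call when Alternaria 2 or 3 or any mock library was left out, and SIP1;1 and SIP2;1, of the endoplasmic reticulum, which rose by 0.71 and 0.69. Summed, the 35 genes held 2457 to 2799 CPM in the Alternaria libraries and 4179 to 4678 CPM in the mock libraries. SAUR genes, fast auxin targets tied to cell expansion, fell in 29 of 52 tested and rose in 8 (median -0.67). AT4G38840, one of the 2 with the most reads, had 44.0, 47.2 and 44.5 CPM in the Alternaria libraries, against 102, 86.0 and 119.7 CPM in the mock libraries, while SAUR9 rose by 1.83 ± 0.15.

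Peptide and growth hormone lists held members that moved in opposite directions. Phytosulfokine is a sulfated growth peptide sensed by the receptor PSKR1. PSK4 had 62.4, 106 and 136 CPM in the Alternaria libraries, against 5.68, 6.54 and 5.99 CPM in the mock libraries, a log2 change of 4.06 ± 0.24 (edgeR adjusted p = 4.9e-08). PSKR1 had 41.3, 53.8 and 53.6 CPM in the Alternaria libraries, against 13.0, 15.2 and 13.9 CPM in the mock libraries, and PSK2 rose by 1.37 ± 0.18. PSK3 fell, with 21.2, 19.1 and 23.5 CPM in the Alternaria libraries, against 55.9, 50.9 and 48.8 CPM in the mock libraries, and PSK5 and PSKR2 were not called; PSK5, at 0.59 with an adjusted p of 0.052, was called by DESeq2 and limma-voom, without Alternaria 3 (0.75) and without mock 3 (0.83).

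The promoter of PSK4 is shown, as the steepest riser of the list, with the W box (TTGACC or TTGACT on either strand), an element bound by WRKY factors, in capitals (250 bases before the start, RefSeq TAIR10.1).
PSK4, chr3:18465068-18465317, plus strand: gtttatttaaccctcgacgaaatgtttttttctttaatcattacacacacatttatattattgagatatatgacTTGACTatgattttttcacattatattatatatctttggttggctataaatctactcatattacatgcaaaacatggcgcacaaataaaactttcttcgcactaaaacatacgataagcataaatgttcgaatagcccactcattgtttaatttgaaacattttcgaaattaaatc
All 6 tested phytosulfokine genes hold a W box in this window, PSK3 and the uncalled PSK5 and PSKR2 included, against 28.2% of all tested nuclear protein-coding genes. In the phosphate list the share was 33.3%.

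Gibberellin genes fell in 11 and rose in 6 of 24 tested (median -0.17). The 3 receptors rose: GID1B had 32.6, 28.9 and 37.9 CPM in the Alternaria libraries, against 5.96, 7.56 and 7.11 CPM in the mock libraries, a change of 2.27 ± 0.12, and GID1A and GID1C rose by 0.96 ± 0.11 and 0.63 ± 0.10. GA2, an early enzyme of synthesis, had 4.69, 5.41 and 5.36 CPM in the Alternaria libraries, against 15.0, 13.4 and 15.8 CPM in the mock libraries. Of the DELLA repressors RGL3 rose by 1.66 ± 0.21 and RGL2 fell by 0.94 ± 0.16. GID1C and RGL3 were named after their values were seen. Of 20 brassinosteroid genes 8 rose and 3 fell (median 0.15, or -0.03 with upper-quartile scaling). The share called, 55.0%, was near the 55.6% of all tested genes. BRL3, a receptor related to BRI1, had 39.4, 37.4 and 48.6 CPM in the Alternaria libraries, against 7.40, 7.21 and 6.33 CPM in the mock libraries, a change of 2.58 ± 0.12. BES1, a transcription factor of the same pathway, had 92.4, 109 and 93.9 CPM in the Alternaria libraries, 208, 229.9 and 228 CPM in the mock libraries, and 117, 103 and 119 CPM in untreated leaves, so the mock group stood apart from both others. In cytokinin response and breakdown 10 of 20 tested genes fell and 2 rose (median -0.33). The response regulators ARR6, ARR15 and ARR16, induced by the hormone, fell by 1.04 ± 0.16, 1.32 ± 0.19 and 1.63 ± 0.18, and the receptor WOL by 1.14 ± 0.13. CKX4, which breaks cytokinin down, had 14.2, 16.5 and 19.2 CPM in the Alternaria libraries, against 5.77, 5.00 and 5.02 CPM in the mock libraries. The receptor HK3 rose by 0.38 ± 0.07, and ARR5, also a response regulator, was not called.

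**Figure D5:**
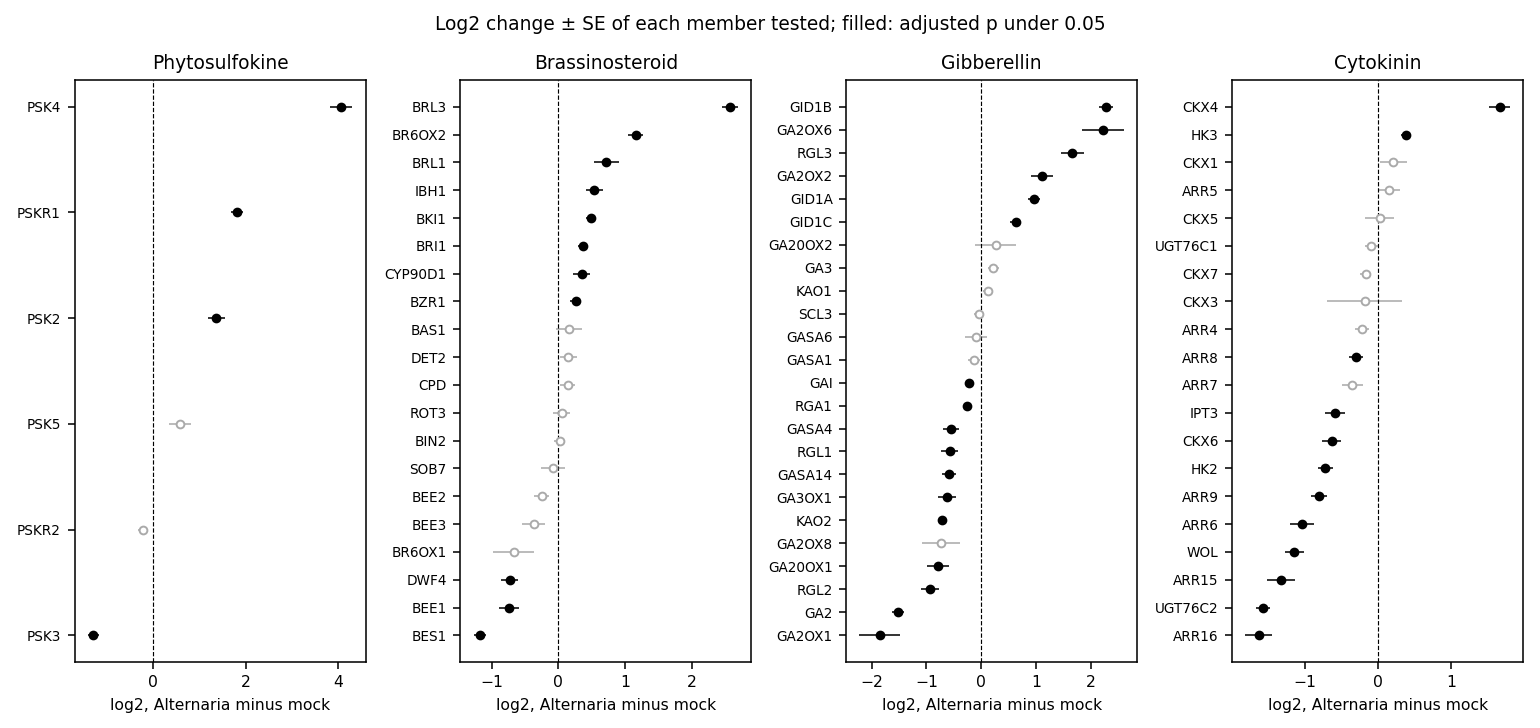
Log2 change ± SE, Alternaria minus mock, of every tested gene of 4 hormone and peptide lists (one row a gene; filled black, adjusted p under 0.05; open grey, not called). PSK4 (4.06), BRL3 (2.58), GID1B (2.27) and CKX4 (1.66) lie farthest to the right in their panels, and PSK3, BES1, GA2OX1 and ARR16 farthest to the left.

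Large enzyme families held steep rises inside mixed lists. Of 34 tested subtilases, secreted proteases, 18 fell and 5 rose (median -0.45). SBT3.3 had 30.9, 30.7 and 66.3 CPM in the Alternaria libraries, against 1.03, 0.945 and 1.06 CPM in the mock libraries, a log2 change of 5.39 ± 0.37 (edgeR adjusted p = 1.3e-07), and SBT3.5 rose by 2.85 ± 0.18, while AT5G59130 fell by 1.98 ± 0.11. Of 58 GDSL lipases 22 fell and 14 rose. GLIP1, a secreted lipase, had 19.7, 14.5 and 26.0 CPM in the Alternaria libraries, against 1.14, 0.665 and 0.669 CPM in the mock libraries, and ESM1, which steers glucosinolate breakdown and holds most reads of the family, fell to 1026, 1046 and 1024 CPM in the Alternaria libraries, against 2485, 2601 and 2817 CPM in the mock libraries. Of 48 MATE efflux carriers 22 rose and 12 fell (median 0.12, or -0.05 with upper-quartile scaling); AT3G23550 had 44.7, 48.1 and 67.5 CPM in the Alternaria libraries, against 5.46, 5.49 and 3.04 CPM in the mock libraries. Of 104 glycosyltransferases 41 rose and 30 fell (median 0.10, or -0.08 with that scaling). UGT76B1, which glucosylates isoleucic acid, had 87.4, 70.1 and 104 CPM in the Alternaria libraries, against 10.6, 7.59 and 5.77 CPM in the mock libraries. The family name also covers GBSS1, the granule-bound starch synthase, which had 284, 245 and 286 CPM in the Alternaria libraries, 758, 627 and 697 CPM in the mock libraries, and 1958, 1710.5 and 1501 CPM in untreated leaves.

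Heat shock genes and chaperones changed in both directions, with 12 of 29 rising and 10 falling (median 0.31). HSFA4A, a heat shock factor, had 37.5, 36.8 and 41.0 CPM in the Alternaria libraries, against 8.62, 9.69 and 9.59 CPM in the mock libraries, and HSP90.1 rose by 1.14 ± 0.16. HSFA2, another heat shock factor, fell by 0.90 ± 0.15, and the constitutive HSP70-1, which has the most reads of the list, by 0.31 ± 0.07. HSP70-2 rose by 2.04 ± 0.18, but it is a close copy of HSP70-1 and its reads are uncertain. RALF peptides, tested in 11 of 37, fell in 5 and rose in 2; RALFL34 had 52.1, 54.0 and 48.8 CPM in the Alternaria libraries, against 98.6, 101 and 108 CPM in the mock libraries. Of 28 jacalin-type lectins 22 were not called, 4 rose and 2 fell; the groups overlapped in JR1, which has the most reads and had 198, 165 and 127 CPM in the Alternaria libraries, against 133, 164 and 147 CPM in the mock libraries.

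In lists of nuclear processes most members were not called. Of 27 DNA replication and cell cycle genes 21 were not called and 6 fell, among them the cell cycle inhibitors KRP1 (-0.64 ± 0.08) and KRP2 (-0.73) and the cyclin CYCD3;1 (-0.46 ± 0.13). RNR1, the ribonucleotide reductase subunit with the most reads, stood at 63.9 to 75.4 CPM in the Alternaria libraries and 61.6 to 75.5 CPM in the mock libraries. Of 42 histone genes, many near-identical, 29 were not called, 5 rose and 8 fell (1 and 14 with upper-quartile scaling). HTA10 was among those that fell, with 45.5, 41.4 and 44.6 CPM in the Alternaria libraries, against 88.5, 76.8 and 81.7 CPM in the mock libraries. Of 22 SR splicing factors and glycine-rich RNA-binding proteins 14 were not called, and RS31, a splicing regulator, rose with 60.6, 58.1 and 61.4 CPM in the Alternaria libraries, against 41.4, 42.1 and 39.0 CPM in the mock libraries.

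By annotated class, protein-coding genes supplied 6357 of the rises and 5522 of the falls among 20627 tested. Of 944 tested loci that the count files list and the RefSeq TAIR10.1 annotation does not 58 rose and 168 fell, with a median log2 change of -0.34. Of 1384 tested genes whose product is uncharacterized or of unknown function 406 rose and 304 fell. Across all 22019 tested genes 29.5% rose and 26.1% fell, so the counts of these 1384 genes lie near the background. The 944 loci outside the annotation were called less often than the background in both directions.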

How the data were processed

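Poly(A) RNA of 9 leaf libraries was sequenced, and the submitters' processing notes name FastQC, TopHat2 2.0.12, the TAIR10 build, HTSeq and DESeq2 1.8.2. The authors deposited raw counts of reads per gene, one file a library, which were used as deposited. No source used here gives the HTSeq version, strand setting or annotation release, so reads of overlapping antisense genes cannot be told apart. Lines that name no gene (7.73 to 11.2% of each library's total) were removed. The authors' 6 tables of comparisons were not used.

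Genes were filtered with filterByExpr (minimum count 10), scaled by TMM and fitted with edgeR 4.0.16 (R 4.3.3, glmQLFit and glmQLFTest) over all 9 libraries, which gave 6 residual degrees of freedom, with Benjamini-Hochberg adjustment over 22019 genes and a threshold of 0.05. SE and 95% intervals are those of the log2 change. DESeq2 1.42.0, limma 3.58.1 and other filters, scalings and sets of libraries were alternatives. The procedure was tested on simulated data, in which false calls made up a larger share of all calls than the threshold allows and small changes were recovered less often than large ones. At 28758293 to 36061529 gene counts per library of the 2 groups, 3 counts equal 0.0832 to 0.104 CPM, and intervals cover the spread between libraries.

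The 45 gene lists, the 7 marker lists and the tests were chosen with earlier results of these data known. Genes were named by rule: the 10 largest CPM rises and falls with groups apart, the 6 highest genes switched on by level, in each list up to 5 called members with the largest log2 change, groups apart and a mean of 5 CPM or more, and the 2 members with the most reads. Others, such as regulators in the same pathway, subunits beside them, and paralogues, were named after their values were seen. Promoters are the 250 bases before each gene's annotated start in RefSeq TAIR10.1. They were searched on both strands for 10 motifs. The letters of P1BS, the telo box, site II, the W box, the CGCG element and the heat shock element stand in the results. The G box (CACGTG), the GATA-type I box, the evening element and the GCC box were also searched and are not described. Those described were picked after the shares were seen.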

Additional observations from a re-analysis of the deposited data

How the results depend on the processing

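Across all genes, the 12241 calls (6489 higher, 5752 lower) ranged from 8771 with a fold limit of 1.2 to 13051 with upper-quartile scaling over the settings other than leaving out a library, and DESeq2 gave 11930 and limma-voom 12296. Leaving out 1 library at a time gave 10824 calls (without Alternaria replicate 3) to 12570 (without untreated replicate 1), with 5794 to 6678 higher and 4921 to 5892 lower. The labels do not say whether equal replicate numbers pair the libraries. Deviations of same-numbered Alternaria and mock libraries correlated at 0.11, 0.07 and -0.09, which cannot show whether they were handled together. With the replicate number as a block 11940 genes were called (6337 higher, 5603 lower). Upper-quartile scaling reversed 1 of the 381 genes followed (331 picked by the naming rule and 50 named after their values were seen), the complex I gene AT4G02580, to -0.01 on the log2 scale, against 0.16 with TMM scaling. Of those 381 genes 344 were called, 28 of the calls were lost under at least 1 setting and 16 others were gained under at least 1. The number of genes switched on by level, 13, became 107 with limits of 1 CPM and 3 CPM and 0 with limits of 0.2 CPM and 10 CPM, and the number switched off, 0, became 11 and 0. Besides upper-quartile scaling, a minimum count of 30 turned the median of the UMAMIT exporters to 0.14 in place of -0.16, by leaving fewer genes tested. Medians within 0.1 of 0 also changed sign when 1 library was left out, in the lectin, SR factor, histone, glycosyltransferase and phloem marker lists; that of the glycosyltransferases was -0.01 without Alternaria replicate 3, against 0.10. The root markers turned to 0.02 without mock replicate 3, against -0.28, and the flower and seed markers to 0.27 without mock replicate 2, against -0.11, with 2 genes tested in each. Depth limits the bHLH and IMA iron genes, of which some libraries hold only a few reads.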
